A study of Homo sapiens with 12 samples.

Results

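The 44 genes described here mark the epithelial and mesenchymal states of cells. They were chosen by name, with earlier results of these data known. The 28 epithelial genes comprise junction proteins, simple keratins, epithelial splicing factors, epithelial transcription factors and surface proteases with their inhibitors. The 16 mesenchymal genes comprise cadherin-2, vimentin, matrix proteins, an integrin and transcription factors of the epithelial to mesenchymal transition. All 44 were found among the 60675 genes listed for each library. RNA was sequenced from LNCaP, an androgen-dependent human prostate cancer cell line, and from LNCaP:C42 (C4-2 below), its castration-resistant derivative. The study asked how inhibitors of the histone demethylases KDM1A and KDM7A alter gene expression in androgen-treated cells.

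All 12 libraries came from cells grown in hormone-stripped medium and given the synthetic androgen R1881 at 1 nM, also the control groups, and treatment lasted 72 h. The 6 groups held 2 libraries each. C4-2 cells received R1881 alone, R1881 with the KDM1A inhibitor namoline at 50 µM, R1881 with the KDM7A-selective inhibitor TCE-5002, or R1881 with both inhibitors (the combination), and cells labelled LNCaP received R1881 alone or with the combination. TCE-5002 is given at 100 µM in the series description and at a lower dose in the methods of the study, so its dose is uncertain. The paper states that it also targets KDM7B (PHF8) and KDM2A, so its effects below are not assigned to KDM7A alone. By the methods the control groups also received the DMSO vehicle, and R1881 alone below means R1881 with vehicle. A protocol field of the labels describes siRNA work, so each library was placed in its group by its title. The methods name the libraries biological replicates. Each line is a single established line, so the p-values cover the spread between cultures of that line. The lines share no replicate, so in comparisons between them line cannot be told apart from culture or library origin.

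Epithelial cells are held together by adherens junctions, tight junctions and desmosomes, and carry keratin filaments. In the epithelial to mesenchymal transition, transcription factors of the ZEB, SNAI and TWIST families repress genes such as CDH1 (E-cadherin), cells lose junctions, and vimentin, N-cadherin and matrix proteins appear. ESRP1 and ESRP2, splicing regulators of epithelial cells, and the OVOL transcription factors act in the opposite direction. LNCaP is known as a line of luminal prostate epithelial character.

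Library totals ran from 14791602 to 20690819 counts, and replicates of a group correlated at r from 0.990 to 0.997 across 15606 genes, which are not independent of each other. The C4-2 TCE-5002 libraries stood farthest apart, with a chi-square per gene of 24.8 against 3.34 to 8.71 in the other 5 groups. The file header of the first LNCaP combination library names namoline and not TCE-5002, against its title, and values without it are given beside the results of that group that it bears on. The libraries labelled LNCaP stood apart from C4-2 in luminal prostate markers. The paper states that all its cell lines were authenticated by DNA markers. No reference profile of LNCaP was compared here, so the identity of these libraries was not tested. Here and below a gene is past the threshold at an edgeR adjusted p-value (quasi-likelihood test, Benjamini-Hochberg over all genes tested) under 0.05 and a change of at least 2-fold. Of 10 luminal prostate markers, 7 were past it in the direction of C4-2 R1881 and 0 in that of LNCaP R1881, where 24.3% and 26.2% of all genes were, and the other 3 differed by less than 2-fold. FOLH1, a prostate surface antigen, was at 887 and 853 CPM (counts scaled to library size) in C4-2 R1881 and at 37.4 and 35.2 CPM in LNCaP R1881, while KLK3 (prostate-specific antigen) was at 206 and 224 CPM in C4-2 and at 404 and 357 CPM in LNCaP, less than 2-fold. These 4 libraries are called by their label below. The comparisons within C4-2 hold none of them, whereas the line difference cannot be given without them. Of the 7 fibroblast markers, DCN and LUM had 0 counts in both LNCaP R1881 libraries, and PDPN carried the list there at 36.2 and 33.7 CPM. The 6 basal markers summed to between 0.310 and 1.03 CPM in every library. The 6 endothelial markers summed to 6.21 to 8.75 CPM in C4-2 R1881, 5.23 to 6.58 CPM under either inhibitor, 0.443 to 0.496 CPM in C4-2 combination and 1.42 to 1.97 CPM in LNCaP R1881. VWF carried that list at 8.61 and 6.21 CPM in C4-2 R1881, while PECAM1 and CDH5 stayed at or under 0.189 CPM in every library. PTPRC, the pan-leukocyte marker, stayed at or under 0.158 CPM in every library. The part of these lists in the results below was not tested.

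Sequences upstream of the start sites are shown because ZEB and SNAI factors are known to bind the E-box CACCTG, which reads CAGGTG on the opposite strand, in promoters of epithelial genes. RefSeq promoter windows (GRCh38.p14, 250 bases before to 50 after the start) were found for 26 of the 44 genes, as 23 epithelial and 19 mesenchymal windows, several of them from the same gene. CDH1, EPCAM, ESRP1 and ESRP2 were among the genes without a window. An E-box of this kind stood in 12 of 23 epithelial windows (52.2%) and in 3 of 19 mesenchymal windows (15.8%), against 20.6% of all 35116 windows of that length. By gene, it stood in a window of 11 of 15 epithelial and 2 of 11 mesenchymal genes, the latter ZEB1 and AXL. A share by gene was not computed over all genes. The grainyhead motif AACCNGTT, which reads AACNGGTT on the opposite strand, stood in 1 of 23 epithelial windows, that of CGN, and in 0 of 19 mesenchymal windows, against 1.73% of all windows. Both strands were searched, and a match is only a match of letters. Below are the 250 bases before the start, on the strand of the gene, of RAB25 (chr1:156060910-156061159, plus strand), CGN (chr1:151511137-151511386, plus strand) and VIM (chr10:17227991-17228240, plus strand). No annotated exon covers these stretches. Capitals mark an E-box in RAB25 and the grainyhead motif in CGN, which overlaps no E-box, and VIM held neither motif.
RAB25: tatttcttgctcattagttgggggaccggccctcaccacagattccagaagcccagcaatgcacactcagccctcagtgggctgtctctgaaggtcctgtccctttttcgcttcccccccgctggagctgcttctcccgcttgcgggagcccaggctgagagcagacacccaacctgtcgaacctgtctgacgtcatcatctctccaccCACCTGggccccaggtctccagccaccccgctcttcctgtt
CGN: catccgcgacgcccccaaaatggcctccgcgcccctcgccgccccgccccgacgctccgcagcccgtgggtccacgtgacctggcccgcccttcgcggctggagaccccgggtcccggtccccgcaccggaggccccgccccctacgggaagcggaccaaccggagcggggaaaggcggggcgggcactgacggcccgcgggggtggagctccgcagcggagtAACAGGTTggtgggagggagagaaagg
VIM: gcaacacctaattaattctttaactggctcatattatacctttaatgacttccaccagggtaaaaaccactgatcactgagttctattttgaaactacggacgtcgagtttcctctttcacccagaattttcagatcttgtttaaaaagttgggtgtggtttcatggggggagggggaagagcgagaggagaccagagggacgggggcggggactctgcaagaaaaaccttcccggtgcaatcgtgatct
Pairs of E-boxes lay close together before a start of JUP (chr17:41786008-41786036, minus strand) and of CLDN7 (chr17:7262479-7262504, minus strand). Annotated exons of the same gene cover 233 of the 250 bases before that JUP start and all 250 before that CLDN7 start. The window of the other start of each gene, farther upstream, held no such E-box. Both pairs are shown on the strand of the gene with the E-boxes in capitals.
JUP: tggcccCACCTGccgagCAGGTGagcgca
CLDN7: tatactCAGGTGcgcccCACCTGtcc

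Under R1881 alone, C4-2 carried the epithelial genes at high levels and LNCaP carried most of them far lower. Of the 27 epithelial genes that passed the filter on low counts, 24 (88.9%) were higher in C4-2 and 0 were lower. Of all 19763 genes tested, 24.3% were higher. KRT19, among the 24, was too low in LNCaP to be tested there. It passed the filter through the C4-2 libraries alone, so it had to differ. The summed level of the 28 genes was 5458 to 5609 CPM in the C4-2 R1881 libraries and 1144 to 1192 CPM in the LNCaP R1881 libraries. The median log2 fold change of the 27 genes was 3.94, beside 0.00052 for all genes. The genes were chosen with earlier results known, so the share and the median describe the list without testing it. In 15 of the 24 the fold lay between 10 and 42. In bulk RNA, fewer cells of a type and less RNA per cell cannot be told apart.

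**Figure D1:**
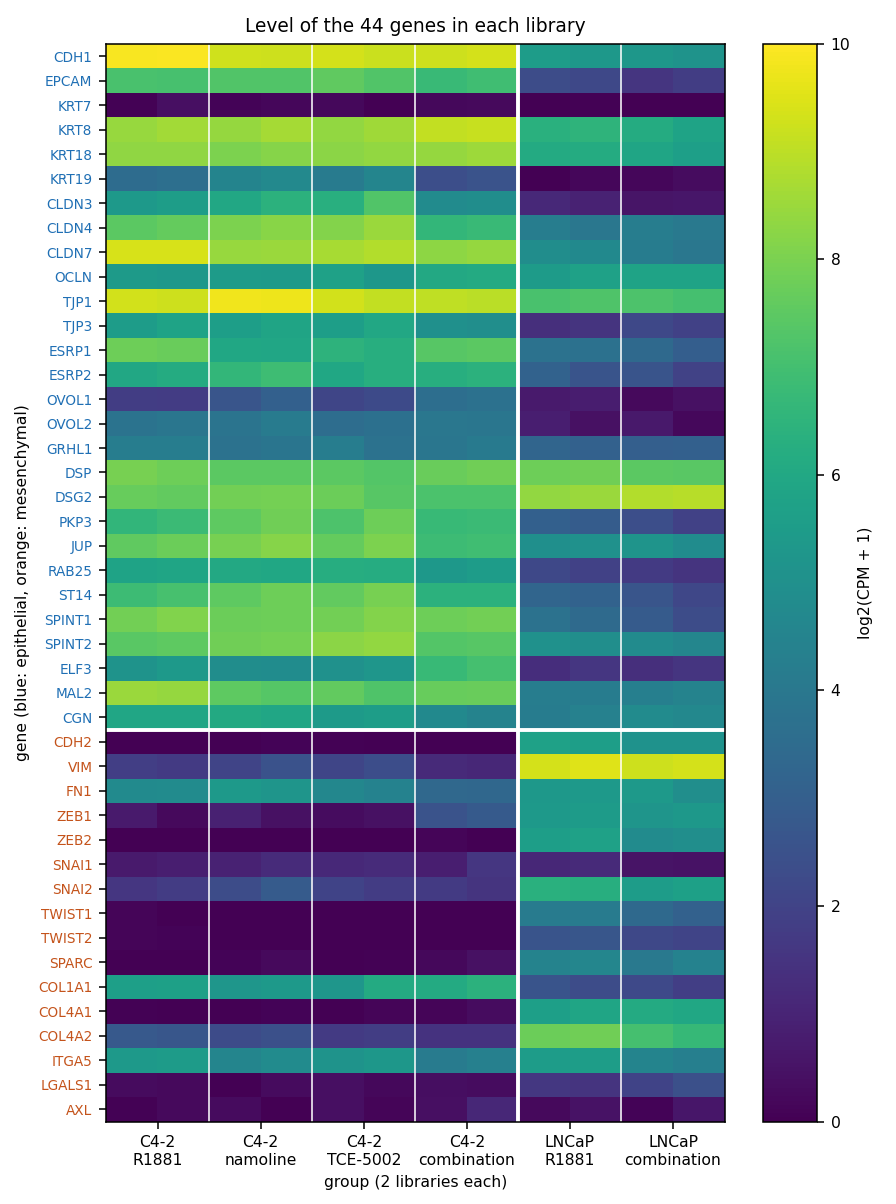
Level of the 44 genes (rows) in each of the 12 libraries (columns, 2 per group) as log2(CPM + 1), by colour. Most epithelial rows are bright in the 8 C4-2 libraries and dark in the 4 LNCaP libraries, and most mesenchymal rows are the reverse.

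CDH1 (ENSG00000039068, chromosome 16, 68737225 to 68835548), the cadherin of the adherens junction, was at 948 and 990 CPM in C4-2 and at 45.3 and 39.7 CPM in LNCaP (log2 fold change 4.57, SE 0.10, edgeR adjusted p = 4.33e-21). The groups lay far apart with little spread within each. EPCAM, an epithelial adhesion molecule, was at 139 and 136 CPM against 4.07 and 3.52 CPM (log2 5.23, SE 0.12, edgeR adjusted p = 8.34e-21). Claudins form the strands of tight junctions. CLDN3 was at 40.5 and 47.0 CPM against 1.23 and 0.960 CPM, CLDN4 at 176 and 199 against 18 and 14.8 CPM, and CLDN7 at 669 and 674 against 28.7 and 25.8 CPM, with log2 fold changes of 5.37, 3.57 and 4.68. Among the plaque proteins under them, TJP1 (ZO-1) was at 639 and 602 against 138 and 151 CPM (log2 2.16), TJP3 (ZO-3) at 44.6 and 54.2 against 1.52 and 1.87 CPM (log2 4.91), and CGN (cingulin) at 59.0 and 59.0 against 17.1 and 19.8 CPM (log2 1.73). All of these passed the threshold. OCLN (occludin) did not, at 42.3 and 39.1 CPM in C4-2 and 43.3 and 52.2 CPM in LNCaP (log2 -0.17, SE 0.10, edgeR adjusted p = 0.129).

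Desmosomal genes were split. PKP3 (plakophilin-3) was at 94.5 and 111 CPM in C4-2 and 7.44 and 6.49 CPM in LNCaP (log2 3.94), and JUP (plakoglobin), which serves desmosomes and adherens junctions, was at 187 and 217 against 30.3 and 32.1 CPM (log2 2.75). DSP (desmoplakin), the linker to keratin filaments, was alike at 245 and 220 CPM in C4-2 and 222 and 226 CPM in LNCaP, with overlapping groups (log2 0.11, SE 0.08, edgeR adjusted p = 0.225). DSG2 (desmoglein-2), a desmosomal cadherin, was the other way round at 206 and 194 CPM in C4-2 and 331 and 362 CPM in LNCaP (log2 -0.74, SE 0.08, edgeR adjusted p = 2.50e-08), less than 2-fold. DSP and DSG2 were thus not lower in the libraries where CDH1, EPCAM and the claudins were low.

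KRT8 and KRT18, the keratin pair of simple epithelia, were higher in C4-2 by log2 2.19 (352 and 395 against 80.9 and 89.4 CPM) and 2.28 (319 and 321 against 68.1 and 69.3 CPM). Their exons overlap by 525 bases on opposite strands, and both have near-identical pseudogene copies, so their values are uncertain in size. KRT19 (ENSG00000171345, chromosome 17, 41523617 to 41528308), another simple keratin, was at 10.7 and 11.5 CPM in C4-2 and had 0 and 3 counts in the LNCaP R1881 libraries, a ratio of 158 with a 95% counting interval of 53.7 to 769. KRT7 stayed at or under 0.320 CPM in every library and was not tested.

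The epithelial splicing regulators differed alike, ESRP1 at 221 and 208 CPM in C4-2 against 12.6 and 12.3 CPM in LNCaP (log2 4.16, SE 0.11, edgeR adjusted p = 1.20e-19) and ESRP2 at 63.4 and 69.5 against 7.96 and 4.98 CPM (log2 3.42). Of the transcription factors, ELF3, an ETS factor of epithelia, was at 33.8 and 40.6 against 1.47 and 2.01 CPM (log2 4.46). OVOL2 was at 13.0 and 14.2 against 0.805 and 0.366 CPM (log2 4.58, or 5.20 without the first LNCaP R1881 library), OVOL1, which like OVOL2 is a zinc finger factor, at 2.48 and 2.43 against 0.663 and 0.731 CPM (log2 1.86), and GRHL1, a grainyhead-like factor, at 17.8 and 18 against 8.53 and 7.63 CPM (log2 1.20). All 4 passed the threshold, over a range from 2.30-fold for GRHL1 to 24.0-fold for OVOL2.

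The membrane serine protease ST14 (matriptase) was at 114 and 134 CPM in C4-2 and 8.62 and 7.86 CPM in LNCaP (log2 3.97). Its Kunitz-type inhibitors were also higher, SPINT1 at 232 and 271 against 12.7 and 9.92 CPM (log2 4.53) and SPINT2 at 171 and 183 against 32.0 and 29.5 CPM (log2 2.58). RAB25, a small GTPase of epithelial membrane recycling, was at 54.8 and 57.6 against 3.55 and 2.83 CPM (log2 4.19), and MAL2, a protein of apical transport, at 364 and 342 against 17.8 and 17.5 CPM (log2 4.38). Per kilobase of exon, CLDN7 (269 CPM per kilobase), CDH1 (157) and MAL2 (103) led the 44 genes in C4-2 R1881, while VIM (140), DSG2 (56.0) and SNAI2 (34.5) led in LNCaP R1881.

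**Figure D2:**
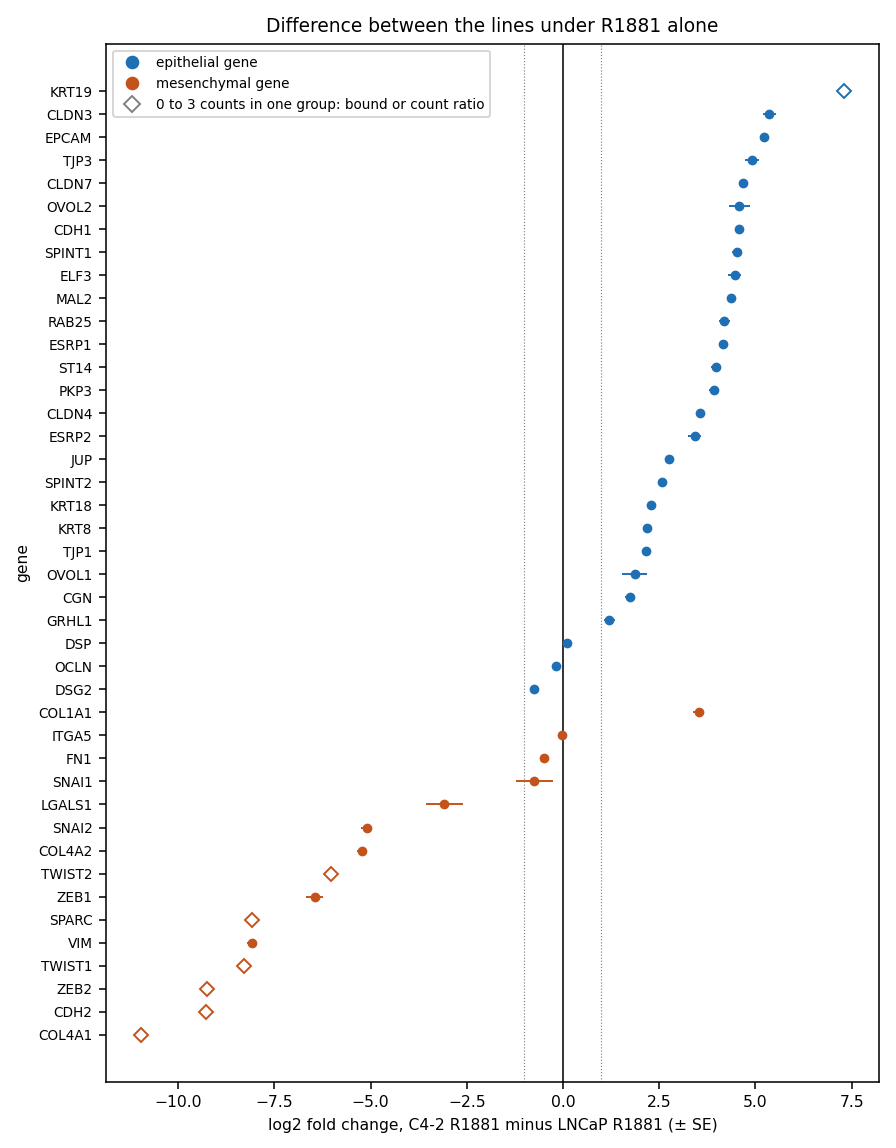
Log2 fold change (± SE) between C4-2 R1881 and LNCaP R1881 for the 42 genes tested, blue for epithelial and orange for mesenchymal. Open diamonds stand for genes with 0 to 3 counts in either group, drawn at a bound or count ratio without SE. Epithelial genes lie well to the right except DSP, near 0 at 0.11, and OCLN and DSG2, to the left, and mesenchymal genes lie to the left except COL1A1, with ITGA5 near 0 at -0.03.

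Mesenchymal genes ran the opposite way. Of the 15 tested, 11 (73.3%) were lower in C4-2 and 1 was higher, where 26.2% of all genes were lower. Their median log2 fold change was -5.85, or -6.02 with genes of 0 to 3 counts at their bound or count ratio. Of the 15, 7 were too low in C4-2 to be tested there and passed the filter through the LNCaP libraries alone, so they had to differ, and the count and median describe the list without testing it. Of the 8 that were also tested within C4-2, 4 were lower and 1 was higher, with a median of -2.92. The summed level of the 16 genes was 130 to 133 CPM in C4-2 R1881 and 1271 to 1380 CPM in LNCaP R1881. VIM (ENSG00000026025, chromosome 10, 17228259 to 17237593), the intermediate filament of mesenchymal cells, was at 2.62 and 2.24 CPM in C4-2 and 652 and 735 CPM in LNCaP (log2 -8.08, SE 0.14, edgeR adjusted p = 5.79e-23). It made up most of the summed level of the list in LNCaP. CDH2 (N-cadherin) had 0 counts in both C4-2 R1881 libraries and 52.2 and 48.0 CPM in LNCaP, at least 618-fold higher against a floor of 3 counts over the C4-2 group.

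The transcription factors of the transition were nearly silent in C4-2. ZEB1 (ENSG00000148516, chromosome 10, 31318495 to 31529814) was at 0.655 and 0.192 CPM against 40.8 and 43.6 CPM in LNCaP (log2 -6.45, SE 0.23, edgeR adjusted p = 1.08e-17), and the value was -7.68 without the first C4-2 library. ZEB2 had 0 counts in C4-2 and 47.6 and 51.5 CPM in LNCaP, at least 612-fold higher against the same floor. SNAI2 (SLUG) was at 2.01 and 2.43 against 81.0 and 76.4 CPM (log2 -5.10). TWIST1 had 2 and 0 counts in C4-2 and 16.8 and 17.1 CPM in LNCaP, a ratio of 314 with a 95% counting interval of 86.6 to 2596. TWIST2 had 2 counts and 1 count in C4-2 and 5.07 and 5.44 CPM in LNCaP, a ratio of 64.9 (21.9 to 317). SNAI1 (Snail) was low in both lines, at 0.655 and 0.768 against 1.18 and 1.28 CPM (log2 -0.74, SE 0.48, edgeR adjusted p = 0.157).

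Matrix genes did not move as a block. COL4A1 and COL4A2, the chains of basement membrane collagen, are transcribed from neighbouring starts. COL4A1 had 1 count and 0 counts in C4-2 and 49.0 and 58.3 CPM in LNCaP, a ratio of 1988 (95% counting interval 356 to 78548), and COL4A2 was at 5.89 and 5.44 against 214 and 227 CPM (log2 -5.22). SPARC, a matricellular protein, had 0 counts in C4-2 and 21 and 22.9 CPM in LNCaP, at least 271-fold higher against the floor. LGALS1 (galectin-1) was at 0.234 and 0.192 against 2.04 and 1.87 CPM (log2 -3.08). COL1A1, a chain of fibrillar collagen, was the exception, at 49.4 and 50.0 CPM in C4-2 and 4.97 and 4.02 CPM in LNCaP (log2 3.52, SE 0.14, edgeR adjusted p = 1.68e-16). FN1 (fibronectin) was at 26.9 and 27.7 against 38.9 and 40.2 CPM (log2 -0.48, edgeR adjusted p = 0.00132), under 2-fold, and ITGA5, the alpha chain of the fibronectin receptor, at 41.5 and 43.9 against 44.9 and 45.9 CPM (log2 -0.03, edgeR adjusted p = 0.788). AXL, a receptor tyrosine kinase, stayed at or under 1.18 CPM and was not tested. The intervals and the floor cover counting error only.

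Other genes of the same kinds, also listed with earlier results of these data known, were counted beside the shares of all genes. Those shares were 24.3% higher and 26.2% lower in C4-2. Of 24 other junction and polarity genes, 14 were higher in C4-2 (58.3%) and 4 lower (16.7%). EVPL (envoplakin) was at 56.9 and 62.6 against 3.55 and 3.98 CPM, and CRB3, a polarity protein, at 24.7 and 28.1 against 2.04 and 1.37 CPM, while AFDN (afadin) and DSC2 (desmocollin-2) were lower by log2 -1.80 and -1.76. Of 28 other matrix and mesenchymal genes tested, 6 were higher in C4-2 (21.4%) and 16 lower (57.1%). Of these 28, 10 were too low in C4-2 to be tested there and passed the filter through LNCaP, and of the other 18, 6 were higher and 6 lower. TIMP1, an inhibitor of matrix proteases, was at 0 and 0.128 CPM in C4-2 and 54.6 and 63.3 CPM in LNCaP, and CDH11 had 0 counts in C4-2 and 15.6 and 12.2 CPM in LNCaP. The matrix protein THBS1 and CALD1 (caldesmon) were higher in C4-2 by log2 3.62 and 1.93.

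Within C4-2, namoline moved few of the genes past 2-fold. Of 27 epithelial genes tested, 2 rose and 2 fell (7.41% each), where 5.17% of all 17702 genes rose and 6.88% fell, and of 8 mesenchymal genes tested 1 rose and 0 fell. These shares were near those of all genes. The median log2 fold change was 0.12 for the epithelial and 0.46 for the mesenchymal genes, beside -0.0043 for all. A further 12 epithelial and 2 mesenchymal genes had an edgeR adjusted p under 0.05 with less than 2-fold change, and 35.0% of all genes had such a p at any size of change. The other 8 mesenchymal genes and KRT7 were too low in C4-2 to test there. The 3 comparisons against R1881 alone share the same pair of C4-2 R1881 libraries.

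ESRP1 fell most under namoline, from 221 and 208 CPM to 60.8 and 60.0 CPM (log2 -1.85, SE 0.11, edgeR adjusted p = 5.15e-08), with the groups far apart. Its paralogue ESRP2 was at 98.2 and 118 CPM against 63.4 and 69.5 CPM under R1881 alone (log2 0.68, edgeR adjusted p = 0.00126), under 2-fold and in the other direction. MAL2 fell from 364 and 342 to 180 and 162 CPM (log2 -1.07, SE 0.12, edgeR adjusted p = 1.52e-05). KRT19 rose from 10.7 and 11.5 to 21.9 and 25.2 CPM (log2 1.07, SE 0.17, edgeR adjusted p = 0.000248). OVOL1 rose from 2.48 and 2.43 to 5.29 and 7.49 CPM (log2 1.35, edgeR adjusted p = 0.000453). The mesenchymal factor SNAI2 rose from 2.01 and 2.43 to 4.06 and 6.29 CPM (log2 1.20, edgeR adjusted p = 0.00385), but its edgeR adjusted p was 0.0551 without the first R1881 library and 0.0877 without the second namoline library. Without that namoline library KRT19 (0.95) and MAL2 (-0.997) also came under 2-fold, and a correction for GC content left them at 0.81 and -0.97. CDH1 was at 619 and 608 CPM against 948 and 990 CPM (log2 -0.68, edgeR adjusted p = 0.000256), and CLDN7 at 353 and 358 against 669 and 674 CPM (log2 -0.94, edgeR adjusted p = 1.78e-05), both less than 2-fold. Of 23 other junction genes, 5 had an edgeR adjusted p under 0.05, with changes below 2-fold, and of 18 other matrix genes 3 fell, THBS1 among them.

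TCE-5002 alone gave a similar small number of calls. Of the epithelial genes 1 rose (3.70%) and 2 fell (7.41%), where 5.04% of all genes rose and 6.8% fell, and of the mesenchymal genes 0 rose and 1 fell, again near the shares of all genes. The median log2 fold change was 0.025 for the epithelial and -0.094 for the mesenchymal genes, beside -0.00014 for all. ESRP1 fell to 87.7 and 75.6 CPM (log2 -1.41, SE 0.11, edgeR adjusted p = 8.18e-07) and MAL2 to 191 and 151 CPM (log2 -1.06, SE 0.12, edgeR adjusted p = 1.99e-05). CLDN3 rose from 40.5 and 47.0 to 77.6 and 153 CPM (log2 1.39, SE 0.24, edgeR adjusted p = 0.00046). The second TCE-5002 library was well above the first, and without it CLDN3 was at log2 0.81 and MAL2 at -0.90, leaving ESRP1 as the 1 epithelial call. With the GC correction CLDN3 was at 0.82 and MAL2 at -0.95. COL4A2 fell from 5.89 and 5.44 to 2.21 and 2.52 CPM (log2 -1.28, SE 0.23, edgeR adjusted p = 0.000618). CDH1 was at 650 and 579 CPM (log2 -0.68, edgeR adjusted p = 0.000278), less than 2-fold. Of the 23 other junction genes 1 rose and 2 fell, and of the 18 other matrix genes 3 fell.

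**Figure D3:**
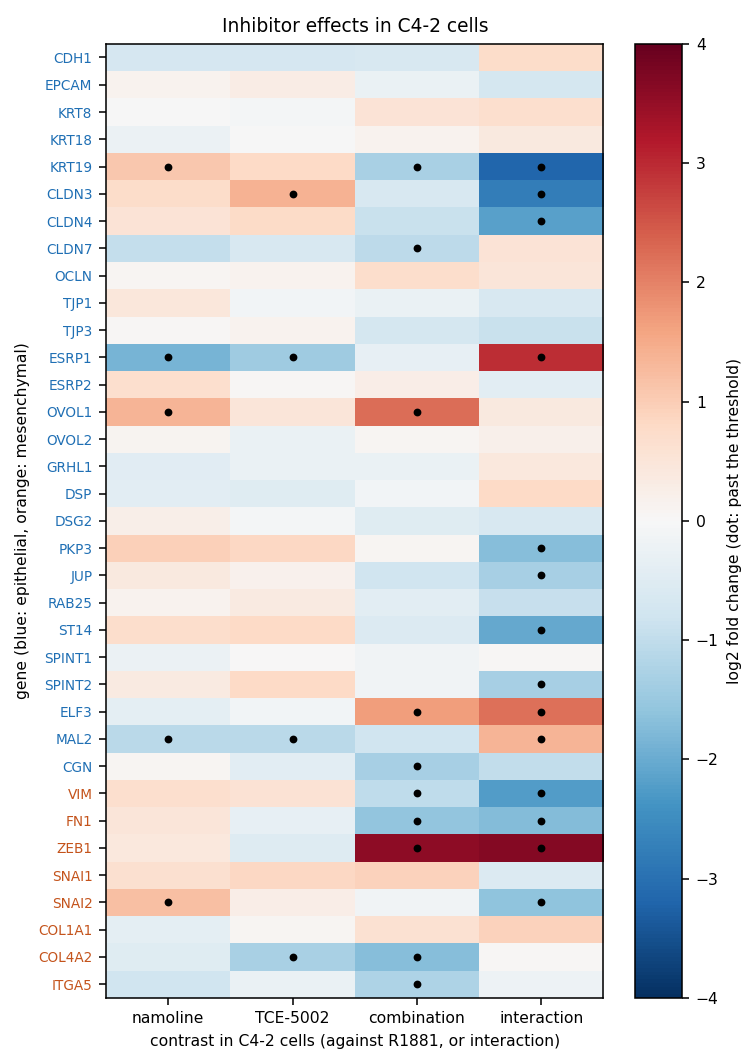
Log2 fold change in C4-2 (colour, red higher and blue lower) for the 35 genes tested there, against R1881 alone for namoline, TCE-5002 and the combination, and for the interaction of the inhibitors. Black dots mark genes past the threshold. The ESRP1 row is blue under each inhibitor and near white under the combination, and the ZEB1 row is red under the combination.

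The combination gave a set of changes in C4-2 that was only in part another. OVOL1 was also past the threshold under namoline and COL4A2 under TCE-5002, each in the same direction. Of the 27 epithelial genes 2 rose (7.41%) and 3 fell (11.1%), where 8.87% of all genes rose and 12.8% fell, so the epithelial shares lay near the background. Of the 8 mesenchymal genes tested 1 rose and 4 fell. The median log2 fold change was -0.28 for the epithelial and -0.57 for the mesenchymal genes, beside -0.034 for all genes. ZEB1 rose from 0.655 and 0.192 CPM (14 and 3 counts) to 4.93 and 6.20 CPM (89 and 100 counts), with log2 3.58, SE 0.43 and edgeR adjusted p = 1.25e-05. Without the first R1881 library the value was 4.78, and without the second 3.06, both past the threshold. Both combination libraries lay above all 6 other C4-2 libraries and below the 4 LNCaP libraries, which ran from 36.0 to 43.6 CPM. ZEB1-AS1, which overlaps 4.2% of the ZEB1 exons on the opposite strand, was at 21.9 and 21.9 CPM against 10.5 and 10.2 CPM under R1881 alone, and the counting did not use strand, so the part of those reads in the ZEB1 value was not tested. ZEB2 had 2 and 0 counts and CDH2 had 0 counts in the combination libraries.

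The 4 mesenchymal genes that fell under the combination were 2 matrix genes, an integrin chain and a filament gene. FN1 fell from 26.9 and 27.7 to 9.30 and 9.06 CPM (log2 -1.58, SE 0.15, edgeR adjusted p = 1.15e-06), COL4A2 from 5.89 and 5.44 to 1.77 and 1.74 CPM (log2 -1.70, SE 0.24, edgeR adjusted p = 5.09e-05) and ITGA5 from 41.5 and 43.9 to 16.8 and 19.6 CPM (log2 -1.25, SE 0.14, edgeR adjusted p = 7.98e-06). VIM, at 1.27 and 1.18 CPM against 2.62 and 2.24 CPM, stood on the threshold (log2 -1.001, SE 0.33, edgeR adjusted p = 0.0193) and lost its call under 8 alternatives, with log2 values from -0.88 to -1.07. VIM-AS1, which overlaps 12.9% of the VIM exons on the opposite strand, was at 0.166 and 0.248 CPM under the combination. Under R1881 alone it was at 0.795 and 0.704 CPM. The part of its reads in the VIM value was not tested. Of 18 other matrix genes tested, 8 fell and 0 rose. PLOD2, a collagen lysyl hydroxylase, fell from 68.4 and 68.1 to 19.4 and 20.5 CPM (log2 -1.79), and THBS1 fell from 15.5 and 15.9 to 4.15 and 3.85 CPM (log2 -1.98). Of 23 other junction genes 1 rose, PARD6B (log2 1.61), and 2 fell, DSC2 (log2 -1.31) and MPZL2 (log2 -1.16). THBS1 also fell under namoline (log2 -1.77) and under TCE-5002 (log2 -2.12).

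Among epithelial genes, ELF3 rose under the combination from 33.8 and 40.6 to 107 and 133 CPM (log2 1.67, SE 0.14, edgeR adjusted p = 4.84e-07), and OVOL1 from 2.48 and 2.43 to 11.1 and 12.2 CPM (log2 2.23, SE 0.22, edgeR adjusted p = 2.21e-06). Other gene models overlap ELF3 on both strands, of which ELF3-AS1 was at 4.04 and 3.85 CPM under the combination. CGN fell from 59.0 and 59.0 to 25.6 and 21.2 CPM (log2 -1.34, SE 0.14, edgeR adjusted p = 2.42e-06), KRT19 from 10.7 and 11.5 to 4.26 and 4.84 CPM (log2 -1.30, SE 0.19, edgeR adjusted p = 7.53e-05) and CLDN7 from 669 and 674 to 317 and 343 CPM (log2 -1.04, SE 0.11, edgeR adjusted p = 3.81e-06). CLDN7 was at -0.99 without the first combination library. ESRP1, low under either inhibitor, was at 169 and 179 CPM under both (log2 -0.31, edgeR adjusted p = 0.0254). CDH1 was at 601 and 656 CPM (log2 -0.64, SE 0.11, edgeR adjusted p = 0.00024), beside 619 and 608 CPM under namoline and 650 and 579 CPM under TCE-5002. In the same libraries the luminal markers summed to 1150 to 1330 CPM against 3544 to 3564 CPM under R1881 alone, and their part in these results was not tested. The basal list summed to 0.310 to 0.332 CPM there and the fibroblast list to 0.248 to 1.05 CPM.

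**Figure D4:**
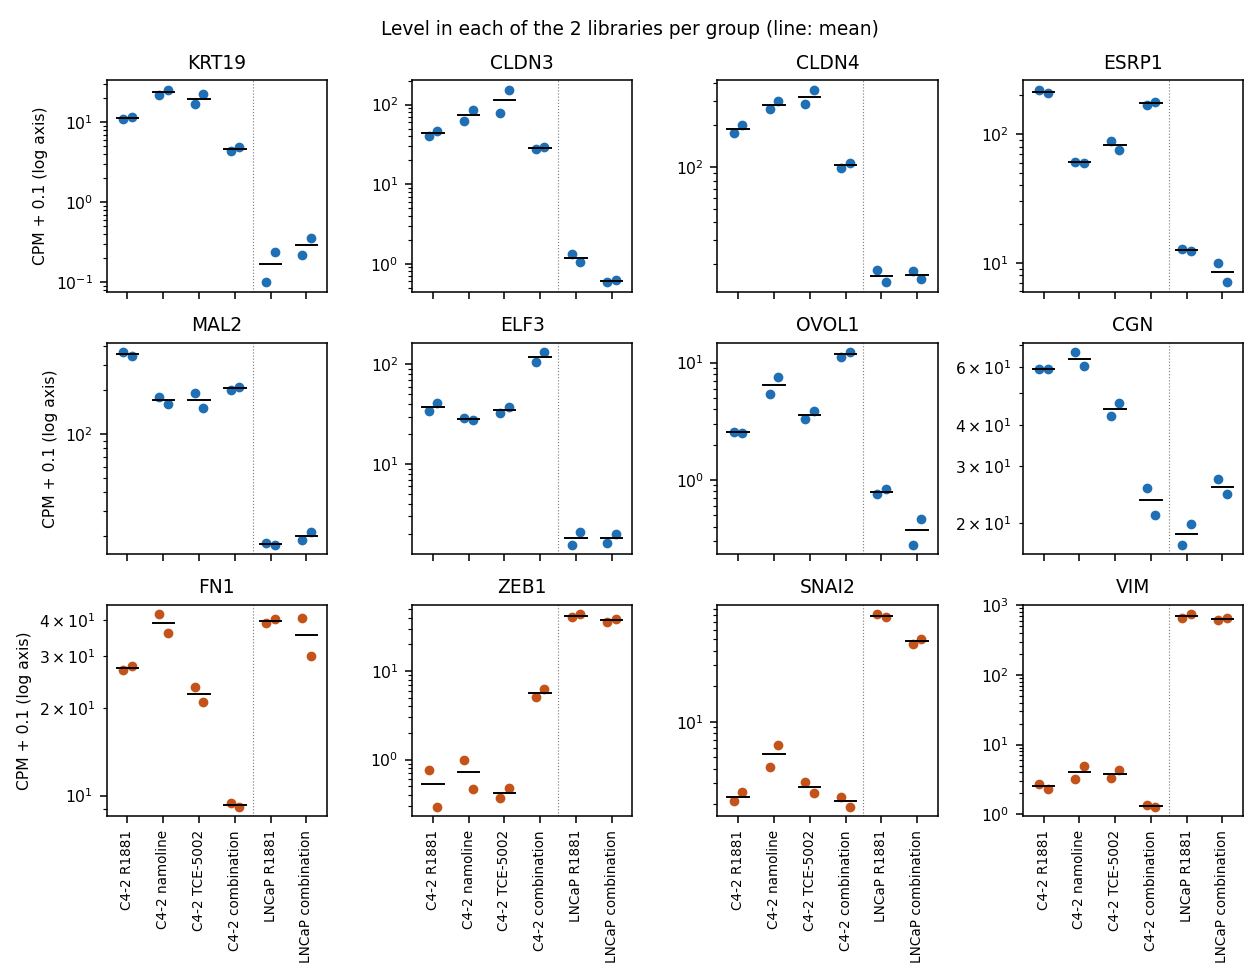
Level (CPM + 0.1, log axis) of 12 genes in each of the 2 libraries per group, with the mean as a line, blue for epithelial and orange for mesenchymal genes. ESRP1 and MAL2 are lower under each single inhibitor, ELF3, OVOL1 and ZEB1 are highest among C4-2 groups under the combination, and FN1 is lowest there.

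The cross of both inhibitors in C4-2 allowed a test of whether the combination differed from the sum of the single effects on the log2 scale. Of the epithelial genes 3 departed upward (11.1%) and 7 downward (25.9%), where 16.7% of all genes did so upward and 18.6% downward, and of the 8 mesenchymal genes 1 departed upward and 3 downward. The median interaction was -0.43 for the epithelial and -0.37 for the mesenchymal genes, beside -0.012 for all genes. All 10 luminal markers departed downward (median -2.43), their sum being 4258 to 4400 CPM under namoline and 6174 to 6465 CPM under TCE-5002 against 3544 to 3564 CPM under R1881 alone, and their part in the result was not tested. For ESRP1 the single changes summed to -3.26 and the combination gave -0.31 (interaction 2.95, SE 0.16, edgeR adjusted p = 3.72e-09). MAL2 was of the same kind, with a sum of -2.13 against -0.79 (interaction 1.35, SE 0.17, edgeR adjusted p = 1.38e-05). ELF3 had a sum of -0.52 against 1.67 (interaction 2.20, SE 0.20, edgeR adjusted p = 5.03e-07).

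KRT19 and the claudins CLDN3 and CLDN4 departed downward. KRT19 was at a sum of 1.87 against -1.30 (interaction -3.17, SE 0.25, edgeR adjusted p = 1.52e-07). CLDN3 was at 62.5 and 85.6 CPM under namoline, 77.6 and 153 CPM under TCE-5002 and 27.5 and 29.3 CPM under the combination. Its interaction was -2.76 (SE 0.34, edgeR adjusted p = 9.30e-06), with the TCE-5002 libraries far apart. CLDN4, at 259 and 297 CPM under namoline, 283 and 358 CPM under TCE-5002 and 97.8 and 107 CPM under both, had an interaction of -2.19. ST14 (-2.04), PKP3 (-1.71), JUP (-1.34) and SPINT2 (-1.32) made up the 7. ST14, for example, was at 185 and 222 CPM under namoline, 191 and 246 CPM under TCE-5002 and 84.7 and 85.6 CPM under both, with both combination libraries below all 6 others. With the GC correction PKP3 was at -0.86 and JUP at -0.82, below 2-fold. Among mesenchymal genes ZEB1 departed upward (3.67, SE 0.79, edgeR adjusted p = 0.0013), but at 2.45 with an edgeR adjusted p of 0.114 without the first R1881 library, and at 4.47 without the first namoline library. VIM (-2.24), FN1 (-1.75) and SNAI2 (-1.62) departed downward. VIM and SNAI2 were low in C4-2, with at most 80 and 105 counts in a library. Of 23 other junction genes 3 departed upward and 5 downward, among them CTNNA1 (alpha-catenin), which was at 867 and 876 CPM under R1881, 460 and 443 CPM under namoline, 481 and 399 CPM under TCE-5002 and 935 and 998 CPM under both (interaction 2.11, edgeR adjusted p = 1.02e-07). Of 18 other matrix genes 2 departed upward and 3 downward.

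Few of the genes moved past 2-fold under the combination in LNCaP. Of 26 epithelial genes tested 0 rose and 1 fell (3.85%), where 7.44% of all 17565 genes rose and 11.3% fell, and of 15 mesenchymal genes 1 rose (6.67%) and 2 fell (13.3%). The medians were -0.31 and -0.53, beside -0.0049 for all genes. SPINT1 fell from 12.7 and 9.92 to 6.25 and 4.03 CPM (log2 -1.09, SE 0.21, edgeR adjusted p = 4.91e-05), ITGA5 from 44.9 and 45.9 to 21.5 and 19.1 CPM (log2 -1.10, SE 0.13, edgeR adjusted p = 7.45e-09) and SNAI1 from 1.18 and 1.28 to 0.425 and 0.413 CPM (log2 -1.48, SE 0.52, edgeR adjusted p = 0.0153). LGALS1 rose from 2.04 and 1.87 to 3.03 and 4.44 CPM (log2 1.00, SE 0.30, edgeR adjusted p = 0.00536). Each of the 4 calls was lost under at least 1 alternative.

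Without the first LNCaP combination library, whose header names only namoline, SPINT1 was at log2 -1.44, PKP3 at -1.25, ST14 at -1.25 and ESRP2 at -1.11. Of the mesenchymal genes TWIST1 was then at -1.12, COL4A2 at -1.06, ITGA5 at -1.20 and LGALS1 at 1.23, and SNAI1 lost its call. With both libraries TWIST1 was at 9.71 and 7.54 CPM against 16.8 and 17.1 CPM (log2 -0.92, edgeR adjusted p = 2.06e-05), COL4A2 at 131 and 103 against 214 and 227 CPM (log2 -0.86, edgeR adjusted p = 8.55e-08), ZEB2 at 27.5 and 30.1 against 47.6 and 51.5 CPM (log2 -0.72, edgeR adjusted p = 5.36e-06), SNAI2 at 45.4 and 50.4 against 81.0 and 76.4 CPM (log2 -0.66, edgeR adjusted p = 5.72e-06) and CDH2 at 33.5 and 33.0 against 52.2 and 48.0 CPM (log2 -0.53, edgeR adjusted p = 0.000256), each less than 2-fold. ZEB1 was at 36.0 and 38.8 CPM against 40.8 and 43.6 CPM, VIM at 610 and 658 CPM against 652 and 735 CPM (log2 -0.07, edgeR adjusted p = 0.627) and CDH1 at 38.1 and 33.9 CPM against 45.3 and 39.7 CPM (log2 -0.18, edgeR adjusted p = 0.212). Of 24 other junction genes 5 fell, among them LSR and PARD6B (log2 -1.08 and -1.32, or -1.23 and -1.17 without the first combination library). Of 28 other matrix genes 6 fell and 1 rose, with CAVIN1 (log2 -1.95, or -2.01 without that library), a coat protein of caveolae, and LOX (log2 -1.69, or -1.75), which crosslinks collagen, showing the largest decreases among those over 10 CPM.

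**Figure D5:**
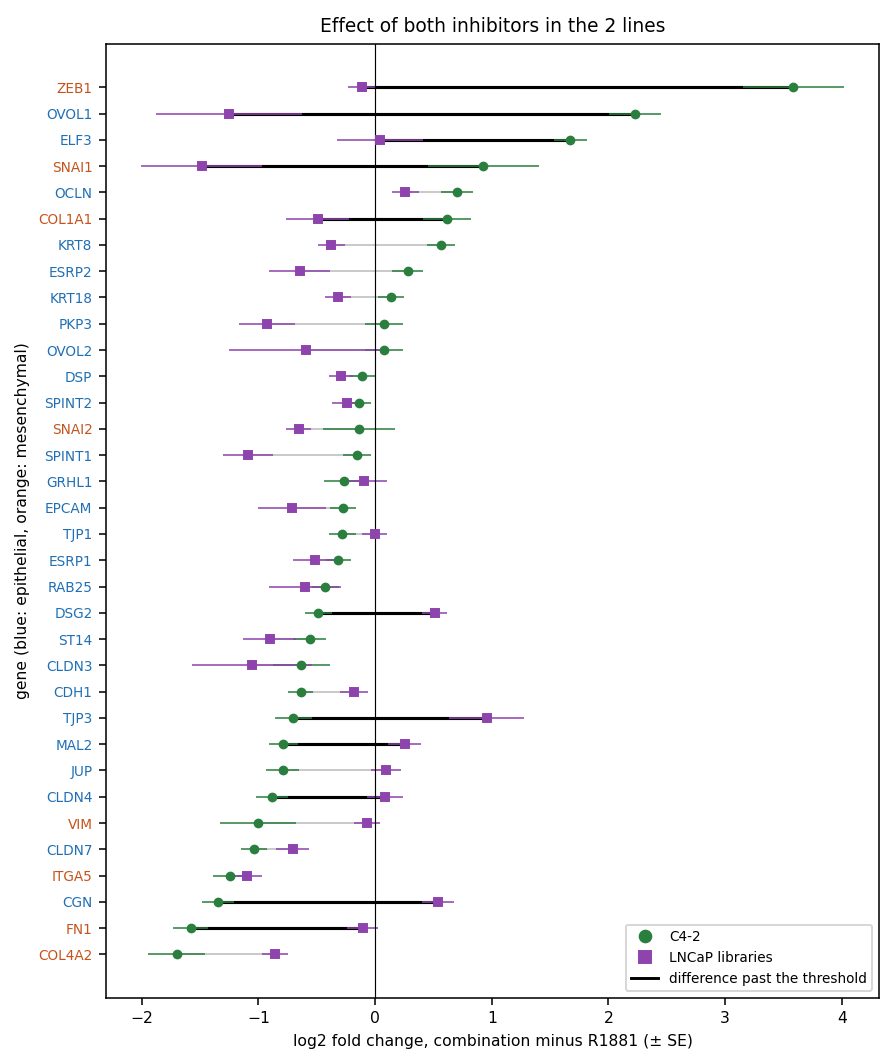
Log2 fold change (± SE) of the combination against R1881 alone in C4-2 (green circles) and in the LNCaP libraries (purple squares) for the 34 genes tested in both. Black connecting lines mark the 11 genes whose difference between the lines was past the threshold, among them ZEB1, OVOL1 and ELF3 (C4-2 to the right) and CGN, TJP3 and FN1 (C4-2 to the left).

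The effect of the combination was then compared between the lines by an interaction term. Of 27 epithelial genes 2 had a higher effect in C4-2 (7.41%) and 6 a lower (22.2%), where 11.4% of all 19763 genes were higher and 13.9% lower, and of 15 mesenchymal genes 4 were higher (26.7%) and 1 lower (6.67%). The medians were 0.13 and 0.47, beside -0.099 for all genes. Of the 15 mesenchymal genes, 7 were too low in C4-2 to be tested there and have no measurable effect in that line. Of the other 8, 3 were higher and 1 lower, with a median of 0.14. The 6 epithelial genes with a lower effect in C4-2 include KRT19. That gene was too low in LNCaP to be tested there and has no measurable effect in that line. ZEB1 differed by 3.63 (SE 0.33, edgeR adjusted p = 5.38e-09, or 4.85 without the first C4-2 R1881 library), OVOL1 by 3.42 (SE 0.54, edgeR adjusted p = 1.37e-05) and ELF3 by 1.58 (SE 0.30, edgeR adjusted p = 0.000123), each higher in C4-2. ELF3 was at 1.52 and 1.91 CPM under the combination in LNCaP against 1.47 and 2.01 CPM under R1881, and OVOL1 at 0.182 and 0.361 against 0.663 and 0.731 CPM. CGN differed by -1.93 (SE 0.17, edgeR adjusted p = 3.81e-09). In LNCaP it was at 27.2 and 24.4 CPM against 17.1 and 19.8 CPM, and the combination groups of the lines overlapped. TJP3 differed by -1.70 (SE 0.27, edgeR adjusted p = 1.20e-05), at 31.1 and 30.1 CPM in C4-2 combination and 3.52 and 2.84 CPM in LNCaP combination. FN1 differed by -1.53 (SE 0.19, edgeR adjusted p = 5.06e-07). DSG2, the cadherin that was higher in LNCaP, was at 143 and 144 CPM in C4-2 combination and 462 and 487 CPM in LNCaP combination, and differed by -1.05 (SE 0.12, edgeR adjusted p = 1.19e-07). SPARC counts also differed (0 in C4-2 R1881, 3 and 6 in C4-2 combination), and its fitted difference depends on the prior count. CLDN4 was at -0.93 and lost its call without the first LNCaP combination library. The values without it were 3.57 for ZEB1, 3.05 for OVOL1, 1.43 for ELF3, -1.86 for CGN, -1.56 for TJP3, -1.30 for FN1, -1.10 for DSG2 and 2.70 for PARD6B. Of 24 other junction genes 5 had a higher and 1 a lower effect in C4-2, and of 28 other matrix genes 6 had a lower effect. Among the junction genes, PARD6B, a polarity protein, was at 34.5 and 38.5 CPM in C4-2 combination and 7.04 and 9.08 CPM in LNCaP combination, and differed by 2.88 (edgeR adjusted p = 2.79e-11).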

How the data were processed

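RNA was sequenced from polyA-selected libraries with paired-end reads. Per the file headers the authors counted read pairs per gene with featureCounts 1.5.0-p1 on Ensembl release 83 gene models (GRCh38), without using strand, and deposited raw counts, 1 table per library. The submitters' processing notes also name FastQC, Trim Galore, cutadapt and STAR. Totals of 14791602 to 20690819 counts per library set the precision.

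From the counts, low genes were removed by filterByExpr, libraries were scaled by TMM, and edgeR 4.0.16 quasi-likelihood tests (R 4.3.3, limma 3.58.1) were run over all genes with Benjamini-Hochberg adjustment. A gene was called at an adjusted p under 0.05 and at least 2-fold change. The C4-2 effects and their interaction were fitted on the 8 C4-2 libraries, the LNCaP effect on the 4 LNCaP libraries, and both line comparisons on the 8 R1881 and combination libraries of both lines. Levels are CPM with TMM factors over all 12 libraries. Promoter windows are RefSeq GRCh38.p14. All scripts that test many genes were tested on simulated data. Members and lists were chosen with earlier results of these data known. Genes outside the 44 were named, per list and comparison, as at most the 2 with the largest change in each direction and at least 10 CPM. Alternatives were RLE scaling, no filter, DESeq2 1.42.0, the likelihood ratio test, a replicate block, a GC correction, adjusted p alone, a fit on all 12 libraries or, for the line difference, on the 4 R1881 libraries, and leaving out each library. The summed level of the leukocyte list is not reported here.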

Additional observations from a re-analysis of the deposited data

Results flagged for a closer look

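For 13 of the 44 genes the effect of the combination differed between C4-2 and the libraries labelled LNCaP by an interaction term past the threshold, and each difference is given as the C4-2 effect minus the LNCaP effect on the log2 scale. These are 13 of 42 genes tested, where 25.3% of all genes tested were past the threshold. The calls of CLDN4, COL1A1, DSG2, KRT19, MAL2 and SNAI1 were lost under at least 1 alternative, and without the first LNCaP combination library CLDN4 was at -0.93 and the other 12 stayed past the threshold. Among epithelial genes the difference was 3.42 for OVOL1 and 1.58 for ELF3, -2.80 for KRT19, -1.93 for CGN, -1.70 for TJP3, -1.09 for MAL2, -1.05 for DSG2 and -1.02 for CLDN4. Among mesenchymal genes it was 3.63 for ZEB1, 2.36 for SNAI1, 1.06 for COL1A1 and -1.53 for FN1. SPARC had a fitted value of 5.52, which depends on the prior count. It rests on 0 counts in the C4-2 R1881 libraries and 3 and 6 counts in the C4-2 combination libraries. SPARC was too low to be tested within C4-2, so its effect there cannot be measured. KRT19 had 0 and 3 counts in the LNCaP R1881 libraries and 2 and 5 in the LNCaP combination libraries. That was too low for a test within LNCaP, so its effect there cannot be measured. COL1A1 was at 69.0 and 84.7 CPM in C4-2 combination and 3.58 and 2.58 CPM in LNCaP combination. MAL2 was at 201 and 212 CPM in C4-2 combination and 18.9 and 21.4 CPM in LNCaP combination. The groups have 2 libraries each, and no cause was tested.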

How the results depend on the processing

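Of 86 calls of single genes, 66 held under every alternative. All 36 calls of the line difference held. Among these, 7 mesenchymal genes and KRT19 passed the filter through 1 line alone and had to differ. The rule of adjusted p alone can only add calls. For namoline 2 of 5 calls held, for TCE-5002 2 of 4 and for the combination in C4-2 8 of 10. For the interaction 11 of 14 held, for the combination in LNCaP 0 of 4 and for the difference between the lines 7 of 13. The last 7 include SPARC, which passed the filter through LNCaP alone and has no measurable effect in C4-2. That its call held is therefore no support for a difference. With adjusted p alone, the epithelial counts were 16 for namoline, 13 for TCE-5002, 17 for the combination in C4-2, 22 for the interaction, 13 for LNCaP and 18 for the difference, and the mesenchymal counts 3 for namoline and 10 for LNCaP, since the 2-fold condition was dropped. Under that rule 35.0%, 36.5%, 50.3%, 53.5%, 56.2% and 47.6% of all genes were called in these 6 comparisons. The GC correction left 1 epithelial call for TCE-5002, DESeq2 left 1 mesenchymal call for LNCaP, and the fit on all 12 libraries gave 2 epithelial calls there. Leaving out each library in turn gave 2 to 5 epithelial and 0 to 1 mesenchymal calls for namoline, 1 to 4 epithelial calls for TCE-5002, and 0 to 4 epithelial and 1 to 4 mesenchymal calls for LNCaP. The namoline counts fell to 2 and 0 without the second namoline library and the mesenchymal one to 0 without the first C4-2 R1881 library. TCE-5002 fell to 1 without its second library. In LNCaP the epithelial count was 0 without the first R1881, 3 without the second R1881 and 4 without the first combination library, and the mesenchymal count was 1 without the second R1881 or the second combination library. ITGA5 in the line difference, not called, ranged from -0.088 to 0.0072, and VIM under the combination in LNCaP, also not called, from -0.17 to 0.026. For the difference between lines, KRT19 was at -1.78 (edgeR adjusted p = 0.144) without the first LNCaP R1881 library and -2.16 (edgeR adjusted p = 0.248) without the second LNCaP combination library, and SNAI1 at 1.58 (edgeR adjusted p = 0.144) without the second C4-2 combination library. With the GC correction DSG2 was at -0.78, MAL2 at -0.80 and COL1A1 at 0.73, and with RLE scaling CLDN4 was at -0.95. The GC correction moved the median interaction of all genes from -0.012 to 0.099. The cause of these changes was not tested.

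Same-numbered libraries of different groups deviated from their group means with correlations of -0.014 to 0.32 within C4-2 and 0.0073 within LNCaP, so the numbers were not taken to pair the libraries. With the replicate block 85 of the 86 calls held, LGALS1 in LNCaP (0.98) being lost, and the block gave 11 epithelial calls for the interaction and 2 mesenchymal calls for LNCaP. With 2 libraries a group and ZEB1, OVOL1 and SNAI1, and within C4-2 also VIM and SNAI2, at few counts, changes of low genes rest on few reads.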
